A study of Mus musculus with 8 samples.

Results

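The p53 pathway was described through 8 genes, Trp53, Mdm2, Mdm4, Cdkn1a, Btg2, Ccng1, Trp53inp1 and Zmat3, chosen by name, and through every N6-methyladenosine (m6A) peak that shared at least 1 base with an exon of one of them on the same strand. The 8 genes were chosen with earlier results of these data known. They are 8 of the 22028 protein-coding genes of the annotation. They carried 29 of the 18895 peaks found in DMSO-treated cells and 14 of the 13001 peaks found in doxycycline (Dox)-treated cells. The study asked how the m6A methylome changes when mouse embryonic stem cells (ESCs) move toward a state that resembles the 2-cell embryo, the 2C-like state. E14 ESCs carried a Dux transgene switched on by Dox and a tdTomato transgene driven by the Mervl promoter, in the control as well as in the treated cells. Cells were kept for 24 h with DMSO, the solvent control, or with Dox. Poly(A) RNA was fragmented and sequenced before (input) and after (IP) pull-down with an m6A antibody. The 8 libraries formed 4 groups of 2 replicates, namely DMSO input, DMSO IP, Dox input and Dox IP. Only 1 peak list per treatment was analysed, so no spread between replicates existed and no test between treatments was made. Each peak has a score, read as the authors' −log10 p-value for enrichment of IP over input. Raw scores of both lists are given, and percentiles are ranks within a list. Read depth is unknown here, and a deeper library or a more abundant mRNA gives more peaks and higher scores at the same methylation level. Of 8 pluripotency markers, 8 carried a peak in each list, and of 8 markers of the 2C-like state, 3 carried one after DMSO and 8 after Dox. The latter markers were Duxf3 (Dux), Zscan4c, Zscan4d, Zscan4f, Usp17la, Zfp352, Tcstv1 and Tcstv3. Peaks of markers were not checked for near-identical sequence elsewhere in the genome. Of the 19 markers of endoderm, mesoderm, neural, trophoblast and fibroblast cells, 4 carried a peak after DMSO and 2 after Dox.

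p53, the product of Trp53, is a transcription factor that is held at a low level in unstressed cells because Mdm2, a ubiquitin ligase, marks it for degradation and Mdm4, a relative of Mdm2, masks its activation domain. DNA damage and other stresses release p53, which then switches on genes that stop the cell cycle, repair DNA or start apoptosis, and also Mdm2 itself, which closes a feedback loop. m6A is placed on mRNA mostly at adenosines within the DRACH motif (D is any base but C, R is A or G, H is any base but G), of which GGAC is the core most often methylated, and it is dense near stop codons and in long internal exons.

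The GGAC motifs under peaks are shown first. The transcript with the longest coding sequence of each gene was used. In the full lists, motifs under DMSO peaks of Mdm2, Mdm4 and Trp53inp1 also lay under Dox peaks. Those of Trp53, Cdkn1a, Btg2 and Ccng1 did not. The DMSO list is the longer, and many of these latter motifs lay in DMSO peaks of low score. Their peaks stood at the 3.68 and 89.9 percentile (Trp53), 27.7 (Cdkn1a), 26.9 and 21.3 (Btg2), and 62.7, 51.8 and 22.2 (Ccng1). The part of list size was not tested. An additional GGAC, in a 25-nt DMSO peak of another Mdm4 transcript, had no Dox peak. Of the 87 GGAC in these 8 transcripts, 14 (16.1%) lay under DMSO peaks and 6 (6.90%) under Dox peaks, where the shares over the transcripts of all genes with a DMSO peak were 22.1% and 15.9%. Peaks covered 14.8% and 7.75% of the bases of the 8 transcripts, and 15.0% and 10.1% over all those genes. All are from the GRCm38 (mm10) genome, read 5′ to 3′ on the gene's strand, with GGAC in capitals and 10 bases on each side. Positions along mRNA are counted from the first base of the stop codon in the transcript with the longest coding sequence, with negative values upstream. The first 6 windows, all coding, lay under a DMSO and a Dox peak. They are 4 sites of Mdm2 on the minus strand (chr10:117690705-117690728, chr10:117690542-117690565, chr10:117690413-117690436 and chr10:117690307-117690330, positions -506, -343, -214 and -108), 1 of Mdm4 on the minus strand (chr1:132992057-132992080, position -412) and 1 of Trp53inp1 on the plus strand (chr4:11169815-11169838, position -132).
Mdm2 site at -506: aaaagatgctGGACccttcgtgag
Mdm2 site at -343: gtgctgaggaGGACagcgaggaga
Mdm2 site at -214: aggaaacgcaGGACaaagacgaga
Mdm2 site at -108: cggcaagactGGACacctcatgtc
Mdm4 site at -412: ctgaaaagaaGGACaatgaaggaa
Trp53inp1 site at -132: gtggataaaaGGACacagtgaaag

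The next windows lay under a DMSO peak and under no Dox peak, as did 2 sites of Trp53 that are described below. Ccng1, on the minus strand, had 2 coding sites (chr11:40753903-40753926 at -730 and chr11:40750932-40750955 at -75) and 1 in the 3′ untranslated region (3′UTR, chr11:40750401-40750424 at 456). Cdkn1a had 1, on the plus strand (chr17:29098469-29098492 at -406), and Btg2 had 1 coding and 1 3′UTR site on the minus strand (chr1:134077611-134077634 at -253 and chr1:134076647-134076670 at 711). The Ccng1 site at -75 was the only 1 of the 14 GGAC of these transcripts under a peak that did not extend to a full DRACH motif.
Ccng1 site at -730: caagattacgGGACtttgaagtaa
Ccng1 site at -75: gattgtgtctGGACgcactgcacg
Ccng1 site at 456: cctgggtgatGGACttacaaagta
Cdkn1a site at -406: tcggtcccgtGGACagtgagcagt
Btg2 site at -253: accacaagatGGACcccatcatca
Btg2 site at 711: aagatggagaGGACctgcacaaaa

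All 8 genes carried at least 1 DMSO peak, where 27.5% of all protein-coding genes did, and 7 of the 8 carried a Dox peak, where 22.1% did. Ccng1 was the exception, with 4 DMSO peaks and 0 Dox peaks. Because the 8 genes were chosen with earlier results of these data known, no enrichment is read from these shares. The shares over all protein-coding genes were also not limited to expressed genes. Among all genes with a DMSO peak, 22.0% had no Dox peak. In the full lists no member gene had more Dox than DMSO peaks, 1 had as many (Mdm2, 1 and 1) and 7 had fewer. Over all 6023 protein-coding genes with a DMSO peak and a usable transcript, 10.4% had more, 29.0% as many and 60.6% fewer. The 29 DMSO and 14 Dox peaks gave a ratio of 2.07 (1.11 to 3.88, from the Wilson 95% interval of the DMSO share, which covers counting error only), and the ratio over all peaks was 1.45, within that interval. Trp53 alone held 8 of the DMSO and 7 of the Dox peaks, and peaks of 1 gene are not independent of each other. Without Trp53 the numbers were 21 and 7, a ratio of 3.00. The DMSO list was then reduced to its 13001 peaks of highest score, so that both lists were of one size. At that size the members held 20 DMSO peaks on 7 genes and 14 Dox peaks on 7 genes. Trp53 and Cdkn1a then had more Dox than DMSO peaks, and Mdm2 and Btg2 had as many. Mdm4, Ccng1, Trp53inp1 and Zmat3 still had fewer Dox peaks.

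Trp53 was the most densely covered of the 8, at 4.52 DMSO peaks per kb of mRNA, against 0.32 to 1.57 per kb for the other members. It carried 8 DMSO and 7 Dox peaks, and its DMSO number was above that of 93.1% of the protein-coding genes with a DMSO peak. Along the spliced mRNA several of these peaks touched each other at exon ends, so that the peaks formed 5 separate stretches in each list. The 132 genes with 8 DMSO peaks had a median of 6 Dox peaks. Peaks covered 44.0% of the Trp53 mRNA after DMSO and 28.2% after Dox.

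The member peak of highest score in the DMSO list was the Trp53 peak over the stop codon in the last exon (chr11:69591329-69591528, 200 nt), with identical ends in both lists. Its score of 26.3 after DMSO and 16.5 after Dox placed it at the 98.6 and 94.6 percentile of the respective list. The stop codon is that of the transcript with the longest coding sequence. In the longest coding transcript of Trp53 the middle base of the peak lies in the 3′UTR, at position 122. The peak held 7 DRACH motifs and 0 GGAC. A few of the motifs are shown, with DRACH in capitals, all on the plus strand, 1 in the coding sequence (chr11:69591384-69591408), 1 over the stop codon itself (chr11:69591419-69591443) and 1 in the 3′UTR (chr11:69591489-69591513).
Trp53 motif at -35: cgccataaaaAAACAatggtcaaga
Trp53 motif at 0: tgactcagacTGACTgcctctgcat
Trp53 motif at 70: ttcagggctgAGACAcaatcctccc

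Upstream of it, DMSO peaks of exons 8, 9 and 10 continued the stop codon peak without a gap, to give 1 stretch of 457 nt from position -357 to 99. In the Dox list the same region held 2 stretches, of 121 nt and 204 nt. The exon 9 peak kept 50 of its 75 nt and went from a score of 22.7 to 11.2, that is, from the 97.8 to the 40.2 percentile. The exon 10 peak, 125 nt after DMSO, was 25 nt after Dox (percentiles 96.1 and 88.3). The exon 8 peak was 1 of 2 member peaks with a higher score in the Dox list, 13.4 and 14.2, on 75 of its 100 nt. A 3′UTR peak (chr11:69591704-69591803, position 324) had identical ends in both lists and scores of 12.5 and 10.7.

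In exon 4, which codes for the N-terminal part of p53, a DMSO peak of 125 nt (chr11:69587410-69587534, plus strand, score 15.2) was replaced in the Dox list by a peak of 25 nt at its 5′ end (13.5) and one of 50 nt at its 3′ end (10.9). It is shown because the 50 bases between the Dox peaks contain its 1 GGAC. Capitals mark bases also under a Dox peak.
Trp53 exon 4 peak: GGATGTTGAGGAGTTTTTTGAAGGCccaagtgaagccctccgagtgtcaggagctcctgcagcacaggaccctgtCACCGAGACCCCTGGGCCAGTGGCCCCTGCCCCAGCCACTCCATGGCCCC

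The remaining Trp53 peaks, 50 nt each in the 5′UTR (chr11:69580434-69580483) and at the end of exon 4 (chr11:69587585-69587634), were absent from the Dox list. Both had scores of 10.2 and stood at the 4.48 and 3.68 percentile of the DMSO list. The second held the other GGAC under a Trp53 peak, so that 2 GGAC of this mRNA lay under DMSO peaks and 0 under Dox peaks.

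The Trp53 peaks carry an uncertainty of assignment. The intronless Trp53-ps pseudogene on chromosome 17 (chr17:54419594-54421171, the span matched here) aligned with all 8 DMSO peaks and 6 of the 7 Dox peaks, at 84.4 to 100% identity. Neither list held a peak at that locus. Only the 25-nt Dox peaks, of which Trp53 had 2, met the limit for a near-identical locus, which was 98% identity or more across no less than 90% of a peak. How the aligner or the caller dealt with reads that fit both loci was not tested.

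Mdm2 carried a single broad peak in each list, and it was the longest peak of the 8 genes. It ran over the last 2 exons and the stop codon (chr10:117690100-117691183, with 725 nt in exons) after DMSO, and 650 of these bases lay under the Dox peak. Scores were 17.1 and 14.3, at the 94.0 and 88.9 percentile. The peak held 21 DRACH motifs after DMSO and 19 after Dox, and the same 4 GGAC, the 4 windows shown above. Mdm2 therefore held 4 of the 6 GGAC that lay under peaks of both lists, and 4 of its 10 GGAC lay under a peak.

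Mdm4 had the next longest peak, 475 nt of coding sequence in its last exon (chr1:132991747-132992221), of which 450 nt were in the Dox list. Its score was 13.4 after DMSO and 11.4 after Dox, a move from the 80.6 to the 46.4 percentile. A second DMSO peak, 75 nt across an exon junction upstream (position -988), had a higher score, 14.5, at the 87.4 percentile, and had no Dox peak. It was the only 1 of the 10 member peaks in the 75 to 100 percentile range of DMSO scores that had none. The third DMSO peak of Mdm4, 25 nt in the 3′UTR of another transcript (score 10.7), had near-identical sequence elsewhere in the genome and cannot be assigned to Mdm4 with certainty.

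Cdkn1a, which encodes the cyclin-dependent kinase inhibitor p21 and is the classical arrest target of p53, carried 2 DMSO peaks of low score. One lay in the 5′UTR (chr17:29093771-29093870, 10.6), where a gene of the opposite strand is also annotated, and was absent from the Dox list. The other crossed the start codon (chr17:29098379-29098578, 200 nt, 11.01), and only its last 50 nt were in a Dox peak (10.7). Its GGAC at -406 lay outside these 50 nt. Covered exon bases were 300 after DMSO and 50 after Dox, that is 16.7%.

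Btg2, an antiproliferative gene whose product recruits mRNA deadenylases, carried 4 DMSO and 2 Dox peaks. Its peak over the stop codon (chr1:134077270-134077469) was the clearest exception to the lower scores of the Dox list. It had a score of 11.2 after DMSO and 15.3 after Dox, at the 34.6 and 92.3 percentile, while its length was 200 nt and 125 nt. The neighbouring 3′UTR peak (chr1:134077045-134077169) went the other way, from 17.9 to 11.4 in score and from 125 to 25 nt. The outer DMSO peaks of Btg2, in the coding sequence and at position 714, each held 1 GGAC, had scores of 10.99 and 10.83, and had no Dox peak.

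Ccng1, which encodes cyclin G1 and is switched on by p53, carried 4 DMSO peaks along its mRNA. The coding ones were chr11:40753893-40753992 (position -757, 100 nt) and chr11:40750927-40751001 (-94, 75 nt), and those in the 3′UTR were chr11:40750352-40750576 (406, 225 nt) and chr11:40749527-40749576 (1318, 50 nt). Their scores were 12.1, 11.7, 10.9 and 11.6, from the 22.2 to the 62.7 percentile. Among the 551 genes with 4 DMSO peaks, 39 or 7.08% (5.22 to 9.53) had no Dox peak. Among the 132 of these whose best score was no higher than that of Ccng1, 25 or 18.9% (13.2 to 26.5) had none, a comparison that was chosen after the values were seen.

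Trp53inp1, which encodes a nuclear cofactor of p53 in apoptosis and autophagy, carried 3 DMSO peaks and 1 Dox peak. The peak that persisted (chr4:11168010-11169954, 250 nt in exons, ending just before the stop codon) had identical ends in both lists and scores of 21.9 and 18.2, the highest Dox score of the 14 member peaks. It also held the single GGAC under a Trp53inp1 peak. Its other DMSO peaks, of 150 nt (from the 5′UTR into the coding sequence) and 100 nt (coding), had scores of 12.9 and 10.5 and were not in the Dox list.

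Zmat3, which encodes an RNA-binding zinc finger protein, carried 4 DMSO peaks in a row from the stop codon into the 3′UTR, at positions 19, 232, 382 and 682. The first (chr3:32341392-32341541, 150 nt) was in both lists with identical ends and scores of 12.1 and 11.4. The 3 downstream peaks, of 25, 125 and 75 nt with scores of 11.6, 12.6 and 11.9, were in the DMSO list only. None of the Zmat3 peaks held GGAC. Its mRNA, the longest of the 8 at 7797 nt, holds 19, and DMSO peaks covered 4.81% of it.

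**Figure D1:**
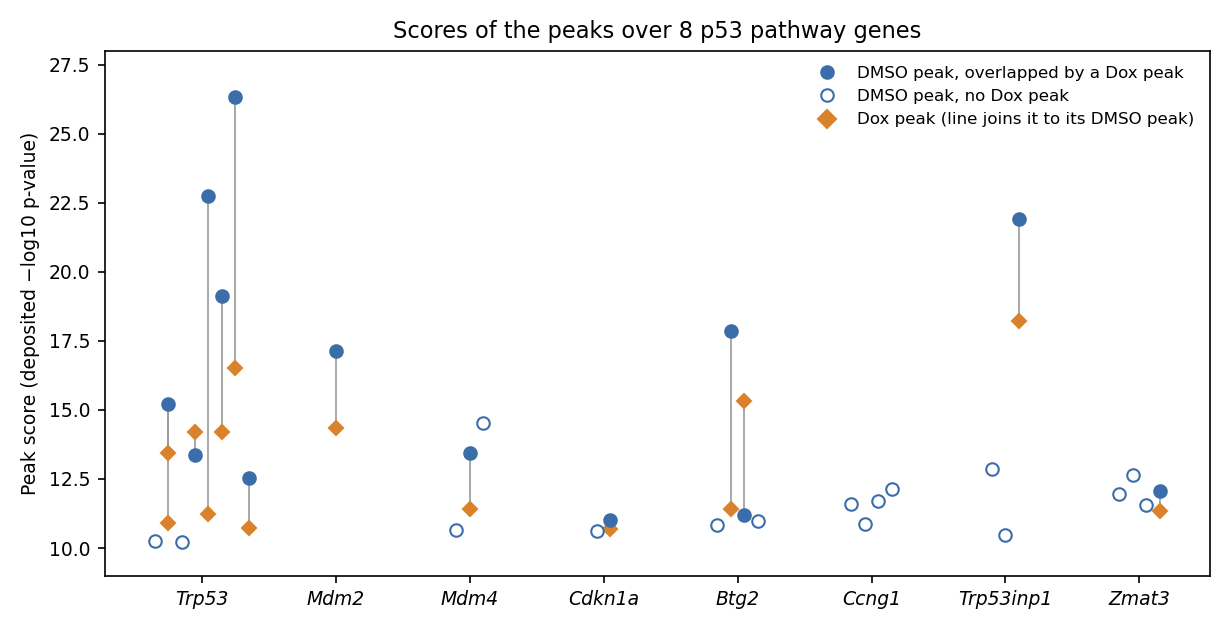
Score of each of the 29 DMSO peaks (circles, filled where a Dox peak overlaps) and 14 Dox peaks (diamonds, joined by a line to the DMSO peak they overlap), by gene, in order of genome position. Open circles gather at low scores, and only the Btg2 stop codon peak and the Trp53 exon 8 peak have a Dox score above the DMSO score.

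Across the members, 13 of 29 DMSO peaks or 44.8% (28.4 to 62.5) were overlapped by a Dox peak, and the share over all DMSO peaks was 57.0%. In the other direction a DMSO peak lay over 14 of 14 Dox peaks of these genes and over 92.7% of all Dox peaks. No peak of the 8 genes was new in the full Dox list. With both lists at 13001 peaks, 12 of 20 DMSO member peaks were overlapped (60.0%, 38.7 to 78.1). So were 13 of 14 Dox member peaks (92.9%, 68.5 to 98.7). Shares over all peaks at that size were not computed, and the 57.0% and 92.7% are from the full lists. The reduction removed DMSO peaks of low score, which over all DMSO peaks were overlapped least often. Below the 25 percentile the share was 20.8%, from 25 to 50 it was 55.5%, from 50 to 75 69.2% and above 75 82.3%. The 60.0% is therefore not to be read against the 57.0%. In the full lists each of the 14 overlapping pairs had the Dox peak wholly inside the DMSO peak, and 4 had identical ends. Over the 12372 pairs of the whole lists, 82.4% were inside and 12.6% identical. By raw score, which is not adjusted for depth or abundance, the Dox peak was the lower in 12 of the 14 pairs, and in 66.8% of all pairs. In the same member pairs the Dox peak also had the lower percentile within its list. Percentiles were not compared over all pairs.

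Whether a DMSO peak of these genes had a Dox counterpart went with its score. Below the 25 percentile of DMSO scores 0 of 7 member peaks were overlapped, from 25 to 50 it was 2 of 5, from 50 to 75 it was 2 of 7 and above 75 it was 9 of 10. Over all DMSO peaks the shares were 20.8%, 55.5%, 69.2% and 82.3%. The median percentile was 89.9 for the overlapped member peaks and 37.1 for the others, against 64.0 and 28.1 over all DMSO peaks. The overlapped member peaks were also longer, with a median of 150.0 nt against 87.5 nt. Several of the overlapped member peaks above the 75 percentile belong to Trp53, and some of them touch along its mRNA. They are therefore not independent of each other.

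**Figure D2:**
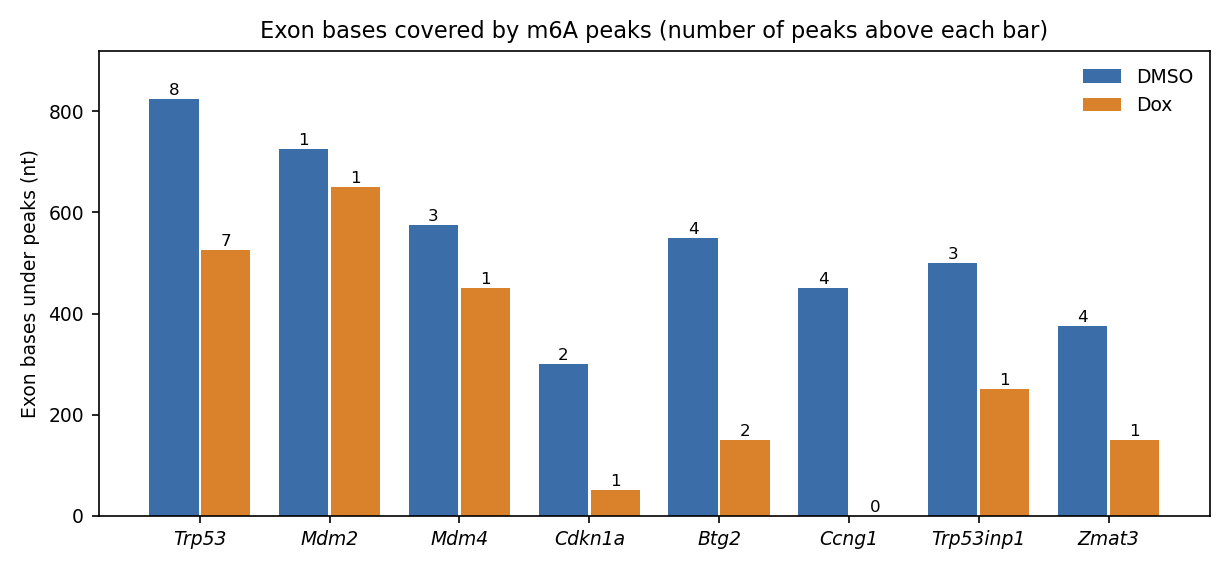
Exon bases (nt) of each gene under DMSO and Dox peaks, with the number of peaks above each bar. The value is lower in the Dox list for all 8 genes, from 725 and 650 nt in Mdm2 to 450 and 0 nt in Ccng1.

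Exon bases under peaks summed to 4300 nt after DMSO and 2225 nt after Dox, so the Dox value was 51.7% of the DMSO value, where the sums over all 6023 genes gave 67.0%. Median peak length was 100 nt in 29 DMSO peaks and 87.5 nt in 14 Dox peaks. Per gene, the Dox share of DMSO bases was 89.7% in Mdm2, 78.3% in Mdm4 and 63.6% in Trp53. It was 50% in Trp53inp1, 40% in Zmat3, 27.3% in Btg2, 16.7% in Cdkn1a and 0% in Ccng1. In the full lists the 3 genes of the p53 core thus lay above all 5 targets, an order that was not tested. It cannot be carried over to lists of equal size. There Cdkn1a kept its Dox peak of 50 nt but no DMSO peak, so it had no such share. The shares of the other genes were not computed at that size. Over all genes the median share was 60.0%, with an interquartile range of 15.4 to 82.8%, and 6 of the 8 members lay within it, Mdm2 being above and Ccng1 below. Mdm2 and Mdm4 also had the longest peaks, and the part of peak length in their higher shares was not tested.

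By position, 6 of 28 DMSO peaks with a place on the main transcript (21.4%, 10.2 to 39.5) had their middle base within 200 nt of the stop codon, and 5 of 14 Dox peaks (35.7%, 16.3 to 61.2). Over all placed peaks the shares were 22.9% and 25.1%, both within those intervals. The 5 Dox peaks belonged to Trp53 (2), Btg2, Trp53inp1 and Zmat3. After DMSO 2 member peaks had their middle in the 5′UTR, 17 in the coding sequence and 9 in the 3′UTR, and after Dox the numbers were 0, 10 and 4. The shares were 7.14%, 60.7% and 32.1% of the placed DMSO peaks and 0%, 71.4% and 28.6% of the Dox peaks. Over all placed peaks they were 3.44%, 72.3% and 24.3% after DMSO, and 3.87%, 71.4% and 24.8% after Dox.

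GGAC was found in 12 of 29 DMSO peaks (41.4%, 25.5 to 59.3) and in 3 of 14 Dox peaks (21.4%, 7.57 to 47.6), searched on the peak's strand. Over all peaks with sequence the shares were 54.0% and 55.9%, and the whole interval of the members' Dox share lay below the second value. Among peaks of 100 nt or more, 3 of 7 Dox peaks held GGAC (42.9%, 15.82 to 74.95), against 73.0% of all such Dox peaks. With only 7 peaks this wider interval includes the 73.0%, though the members' share was still the lower. The 3 Dox peaks with GGAC were those of Mdm2, Mdm4 and Trp53inp1, each 250 nt or longer. In peaks of like length (within 12.5% of each member peak's length) the mean share was 51.1% for the DMSO and 48.5% for the Dox peaks. The first lay within the members' interval and the second just above it. The part of peak length in the low Dox share was not tested. DRACH, which contains most GGAC sites, was found in 26 of 29 and 12 of 14 peaks, and in 84.9% and 85.4% of all peaks. Since 7 of the 14 Dox peaks belong to Trp53, which had 0 GGAC under them, these peaks are not independent of each other.

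The same comparison was extended to 74 other genes of the p53 network, also chosen with earlier results of these data known. Of these, 48 (64.9%, 53.5 to 74.8) carried a DMSO peak and 41 (55.4%, 44.1 to 66.2) a Dox peak. Over all protein-coding genes the shares were 27.5% and 22.1%. The 74 genes held 201 DMSO and 144 Dox peaks, and 63.2% of the former and 96.5% of the latter were overlapped by the other list. Over all peaks the shares were 57.0% and 92.7%. Over all genes with a DMSO peak, 60.6% had fewer Dox peaks, 29.0% as many and 10.4% more. Of the 48 network genes with a DMSO peak, 30 had fewer Dox peaks, 16 as many and 2 more. Those 2, named after their values were seen, were Trp53bp2, which encodes a p53-binding protein, with 4 DMSO and 6 Dox peaks, and Phlda3, with 3 and 4. Among the 23 upstream regulators, 17 carried a peak in both lists and 6 in neither. Huwe1, a ubiquitin ligase for p53, had 19 DMSO and 15 Dox peaks. Ep300 and Crebbp, the acetyltransferases that act on p53, had 10 and 9, and 6 and 6. Usp10, a deubiquitinase of p53, had 8 and 6, Trim24, a ubiquitin ligase, had 9 and 6, and Trim28, a corepressor, had 8 and 5.

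**Figure D3:**
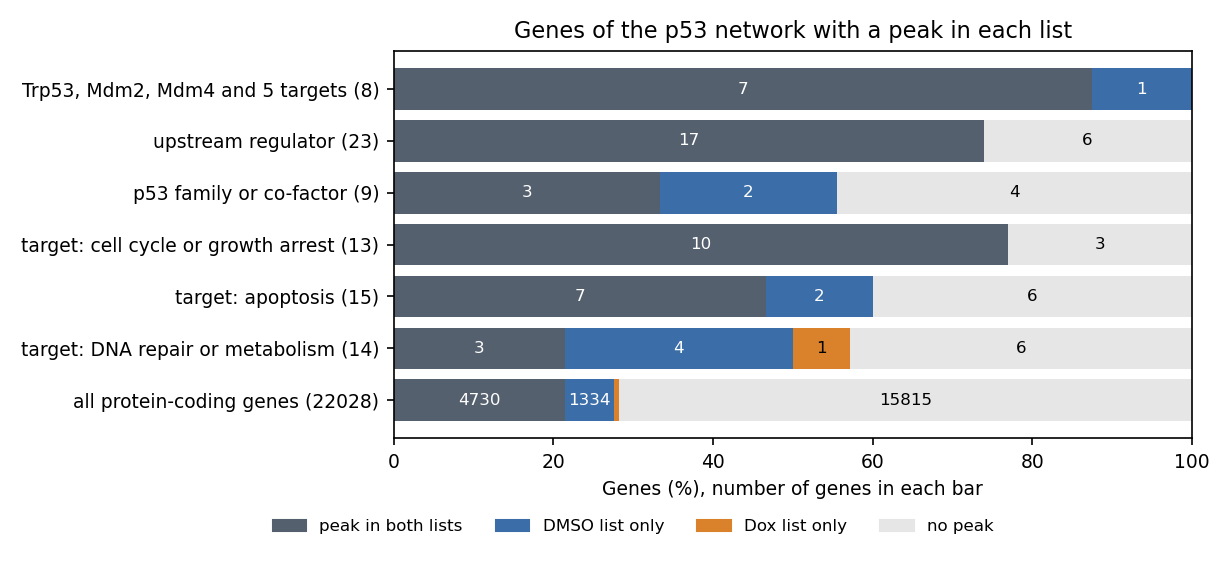
Share of genes in each group of the p53 network with a peak in both lists, in 1 list only or in neither, with the number of genes in each bar and the group size in parentheses. Upstream regulators and arrest targets have no gene with a peak in 1 list only, while 5 of 14 genes of DNA repair or metabolism do.

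In total 8 of the 48 network genes with a DMSO peak had no Dox peak, where the share over all genes was 22.0%. Of 13 other targets in cell cycle or growth arrest, 10 carried peaks in both lists and 0 in 1 list only. Of 15 apoptosis targets, 7 were found in both lists and 2 in the DMSO list only, namely Perp, a membrane protein of desmosomes, and Ei24. Of 14 targets in DNA repair or metabolism, 3 were in both lists and 4 in the DMSO list only, namely Polk, a translesion DNA polymerase, Fdxr, a mitochondrial reductase, Ak1, an adenylate kinase, and Eda2r, a receptor of the TNF family. Of 9 family members or cofactors, the DMSO list only held Trp73, a p53 paralog, and Ppp1r13b, which encodes the p53-binding protein ASPP1 and had 4 DMSO peaks and 0 Dox peaks, as Ccng1 did. Rps27l, a ribosomal protein gene, was the single gene in the Dox list only, with 1 peak of 50 nt and a score of 10.4, near the lowest of that list. The 8 genes in the DMSO list only had a best score of 10.54 to 13.02. Differences between these small groups were not tested. The groups were not matched for peak number. Upstream regulators held 108 DMSO peaks on 17 genes, arrest targets 41 on 10, and DNA repair or metabolism targets 17 on 7. Of all genes with 1 DMSO peak 42.6% had no Dox peak, and of those with 4 it was 7.08%.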

How the data were processed

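MeRIP-seq libraries (8, as 4 groups of 2) gave 2 deposited peak lists, 1 per treatment, with replicates combined in a way not stated. According to the labels and the study's methods, the authors trimmed reads with fastp 0.19.4, aligned them to mm10 with HISAT2 2.2.1 and called peaks with exomePeak2. The deposited value of each peak was taken to be the authors' −log10 p-value, since its minimum was 10.0 and 4 values were infinite. Whether it was adjusted is not given in the sources used here. Read depth is unknown.

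Peaks were assigned to GENCODE M21 exons by strand (at least 1 base). Of inner block edges, 99.9% and 99.8% lay at annotated exon edges. Positions used the transcript with the longest coding sequence. Sequences came from GRCm38, and near-identical loci from blastn 2.17.0. Values were computed in Python 3.11.15. Intervals are Wilson 95% and cover counting error only, since peaks are not replicates. The assignment, stop codon distance and overlap steps were tested on simulated data. The 8 genes, the 74 network genes and the markers were chosen with earlier results of these data known. All peaks of the 8 genes are named, and of the network genes those in 1 list only and the 5 with most peaks per list, ties going to the gene with the highest peak score. Alternatives covered score, list size, strand, transcript, overlap, window and motif.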

Additional observations from a re-analysis of the deposited data

How the results depend on the processing

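Of 72 alternative values for 14 results, 61 stayed within 1.5 times the reported count or inside the reported interval, and 11 did not. With the DMSO median score of 11.64 required in both lists, the members held 17 DMSO and 7 Dox peaks, 4 genes carried a Dox peak and Dox peaks covered 1350 nt. With an overlap of 50% of both peaks, 64.3% of Dox peaks were shared. A window of 400 nt around the stop codon took in 53.6% of the DMSO peaks and 85.7% of the Dox peaks. With DRACH in place of GGAC the shares were 89.7% and 85.7%, and with RRAC 82.8% and 85.7%. These windows and motifs admit more peaks by construction. Without peaks that have a near-identical locus, an alternative chosen after seeing the data, 28 DMSO and 12 Dox peaks remained, on 8 and 7 genes. No paired analysis was possible because the replicates of a treatment are merged in 1 peak list and no result comes from a test.

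Peak numbers move with read depth and with the abundance of each mRNA, neither of which was analysed here, and the part of either in the difference between the lists was not tested. With 8 genes and no replicate values, the precision of every share is limited to the intervals given.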
